A study of Mus musculus with 8 samples.

Results

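Fos, Fosb, Fosl2, Jun, Junb, Jund and Atf3 are described here in T cells sorted from mouse spleen during experimental autoimmune encephalomyelitis (EAE), an immune attack on the central nervous system that serves as a model of multiple sclerosis. The 7 genes were chosen by name, as the rows of a table of 18438 genes whose gene symbol is one of these names. That choice, and the choice of the gene and marker lists below, was made with earlier results of these data known. Each symbol had 1 row, and all 7 passed the filter on low values (at least 10 in at least 2 libraries), which left 13358 genes for testing.

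Messenger RNA was sequenced from 8 libraries of C57BL/6 mice, 2 in each of 4 groups, all at day 7 of EAE induced with MOG, a myelin protein. Treg WT and Treg KO are regulatory T cells, sorted as CD4+CD25hiYFP+, of wild-type mice and of mice labelled IRE1a-/-. Teff WT and Teff KO are effector T cells, sorted as CD4+CD25-YFP-, of the same genotypes. IRE1a is the product of Ern1 and sits in the membrane of the endoplasmic reticulum, where it senses misfolded proteins and splices the Xbp1 mRNA. The labels do not say which promoter drives YFP, which cells carry the deletion, how old the mice were, or whether a library holds cells of 1 mouse or of several. Since no label ties the 2 libraries of a group to separate animals, the p-values below reflect the spread between these libraries alone, and that spread may be technical. A difference in Teff is one between genotypes, whichever cells lost IRE1a.

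AP-1 is a family of dimeric transcription factors built from Jun proteins, which can pair with each other, and Fos proteins, which bind DNA only when paired with a Jun protein. Most of these genes are immediate early genes: they are transcribed within minutes of a signal from the T cell receptor, growth factors or stress, through promoter elements bound by CREB/ATF proteins and by SRF, and their mRNAs decay fast. In T cells AP-1 binds DNA together with NFAT or with IRF4 at many activation genes, and Atf3, a related factor induced by stress, can dampen such genes. Early response genes are also known to move while tissue is dissociated and cells are sorted.

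The promoters of the 5 genes whose RefSeq promoter window holds a CREB/ATF or Jun/ATF motif are shown. Fos, Fosb and Atf3, which were called lower in KO Teff, are among them, and so are Junb and Jun, which were not called. Whether the motifs bear on the differences between groups was not tested. Each stretch runs from 140 bases before to 20 bases after the RefSeq transcription start in GRCm38.p6 (mm10), 5′ to 3′ on the strand of the gene, and capitals mark the motif.

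Fos (chr12:85473750-85473909, plus strand): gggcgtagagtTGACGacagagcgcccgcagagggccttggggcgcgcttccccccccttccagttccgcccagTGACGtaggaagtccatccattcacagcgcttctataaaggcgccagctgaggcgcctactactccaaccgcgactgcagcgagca

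Fosb (chr7:19310026-19310185, minus strand): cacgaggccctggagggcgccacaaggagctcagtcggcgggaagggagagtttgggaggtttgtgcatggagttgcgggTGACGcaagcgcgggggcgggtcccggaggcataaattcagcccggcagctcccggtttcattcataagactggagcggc

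Atf3 (chr1:191183314-191183473, minus strand): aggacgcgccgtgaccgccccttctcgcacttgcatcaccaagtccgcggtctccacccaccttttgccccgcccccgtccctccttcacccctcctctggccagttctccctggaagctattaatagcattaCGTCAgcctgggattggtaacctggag

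Junb (chr8:84978729-84978888, minus strand): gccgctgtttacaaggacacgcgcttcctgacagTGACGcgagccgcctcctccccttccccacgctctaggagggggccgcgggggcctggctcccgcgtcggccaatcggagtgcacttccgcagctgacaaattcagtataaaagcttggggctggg

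Jun (chr4:95052203-95052362, minus strand): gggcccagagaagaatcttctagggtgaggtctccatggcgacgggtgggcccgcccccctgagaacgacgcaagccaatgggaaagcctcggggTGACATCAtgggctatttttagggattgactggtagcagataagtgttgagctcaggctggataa

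In the first 4 the capitals are TGACG, the core of the cyclic AMP response element (CRE), or its reverse complement CGTCA. In Jun they are TGACATCA, a variant that Jun/ATF2 dimers are known to bind. TGACG lies 129 and 66 bases before the start of Fos, 60 before that of Fosb and 106 before that of Junb, and CGTCA lies 7 bases before the start of Atf3. TGACATCA lies 45 bases before the start of Jun. Over windows of 300 bases (250 before to 50 after the start) and on both strands, 4 of the 7 genes held TGACG, against 20.9% of 32544 RefSeq windows, and 1 held TGACATCA, against 3.37%. None of the 7 held the full element TGACGTCA, which contains TGACG and which 1.8% of windows held, or the AP-1 site TGACTCA, which 5.19% held. The windows of Fosl2 and Jund held none of these letters. The motifs were chosen with these promoters in view, so the shares describe the windows and test nothing. The RefSeq start lay within 30 bases of the nearest GENCODE transcript start for these 5 genes, but 299 bases away for Fosl2 and 1210 for Jund.

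The genes lie on 6 chromosomes of GRCm38 in GENCODE M21: Fos on 12 (85473890 to 85477273), Fosb on 7 (19302696 to 19310051), Fosl2 on 5 (32135801 to 32157842), Jun on 4 (95049034 to 95052222), Junb and Jund on 8 (84974484 to 84978718 and 70698949 to 70700616), and Atf3 on 1 (191170296 to 191218039). The longest coding transcript of Jun, Junb and Jund has 1 exon and that of each of the other genes has 4. Jun, Junb, Jund and Atf3 each overlap a gene on the opposite strand, and the library protocol names no step that keeps the strand, so reads from such a pair cannot be told apart. For Junb that gene is Prdx2, whose own values were 960 to 1465 in the 8 libraries, far below those of Junb. Counts of destabilizing AU-rich letters in the 3′ untranslated regions differed between members. The letters TTATTTATT occurred in Fos and Fosl2, 2 of the 7, against 8.56% of 12523 tested genes. ATTTA occurred 4.91 times per kb in Fos, 4.12 in Junb and 3.24 in Jun, against 0.466 in Fosb and a median of 1.30 over tested genes.

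Values are the normalized read numbers that the authors deposited, which summed to between 17504097 and 18751258 per library, with 16324 to 16642 genes above 0. The 7 genes held 0.527% to 0.676% of a library, the lowest share in Teff KO replicate 2. Within a group the libraries had r = 0.980 to 0.984 with each other across genes. Ern1 had 377 and 399 in Treg WT, 326 and 359 in Treg KO, 559 and 616 in Teff WT and 458 and 453 in Teff KO and did not pass the test in either cell type (limma adjusted p = 0.489 and 0.0902). The removed part of Ern1 is not given in the labels, so this is no check of the genotype. The sort was checked with its markers: Foxp3 had 89.1 to 117 in the 4 Treg libraries, was listed at 0 in both Teff WT libraries and had 2.06 and 8.29 in Teff KO, and Il2ra, which encodes CD25, had 8699 to 9012 in Treg and 436 to 690.3 in Teff.

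The libraries of 1 group stood apart from each other in these genes. Teff KO replicate 1 was higher than Teff KO replicate 2 in all 7. The log2 gap was 0.74 for Fosb, 0.61 for Fosl2, 0.48 for Jun, 0.38 for Jund, 0.32 for Atf3, 0.21 for Junb and 0.17 for Fos, with a median of 0.38. Over the 3750 genes with a mean of at least 1000, the same gap had a median of 0.01 and a 90th percentile of 0.22. In the other 3 groups the median gap of the 7 genes was between 0.02 and 0.06, although Atf3, the weakest gene, differed by 0.45 between the Treg WT libraries and by 0.42 between the Treg KO libraries. The results of the 7 genes in Teff KO are therefore given with the values of both libraries and, where the call or the direction changes, without each of them. In bulk samples fewer expressing cells and less RNA per cell cannot be told apart, which holds for each difference below.

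**Figure D1:**
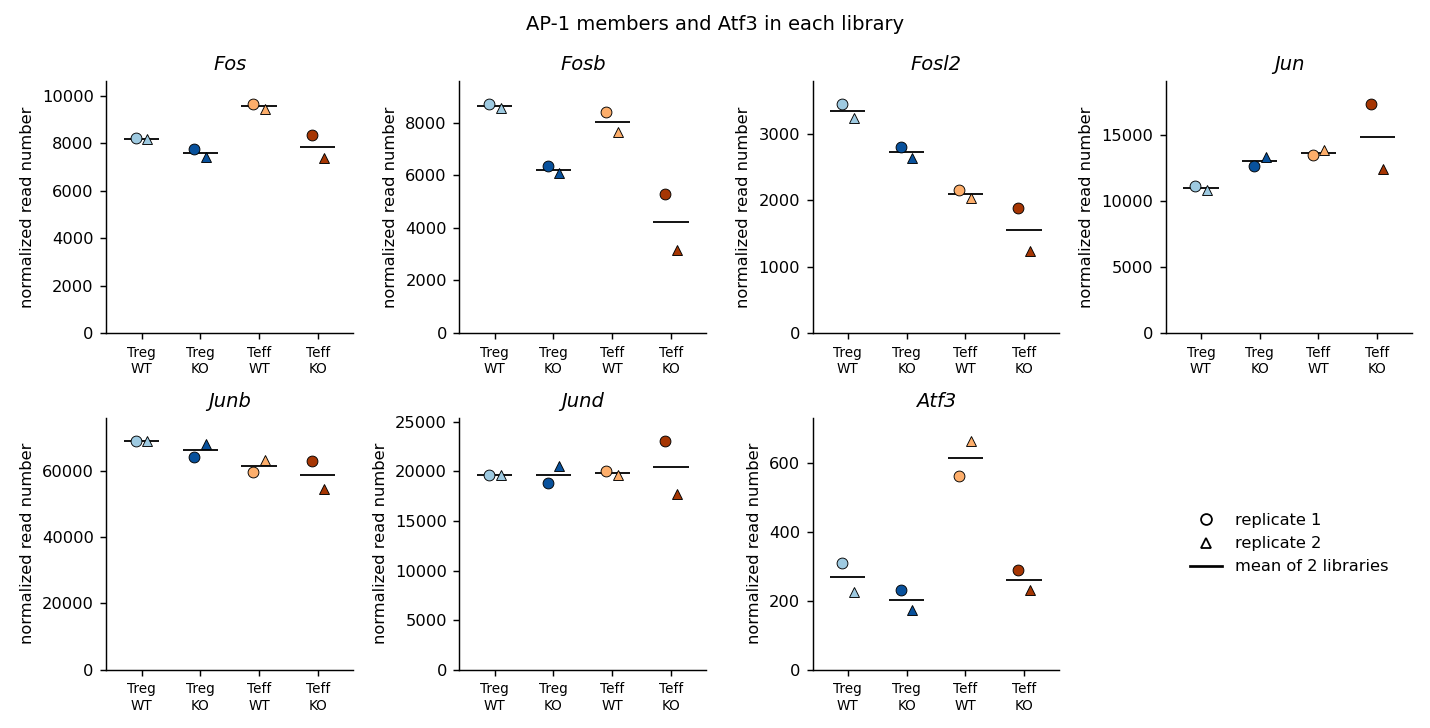
Normalized read number (vertical axis, from 0) of each of the 7 genes in the 8 libraries, by group; circles are replicate 1, triangles replicate 2 and bars the mean of the 2 libraries. Teff KO replicate 1 lies above replicate 2 in every panel, and Fosl2 steps down from Treg WT (3236 and 3455) to Teff KO (1235 and 1881) with no overlap between groups.

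Levels of different genes are compared per kb of the longest coding transcript. On that scale Junb was the most abundant of the 7 genes in every group, with group means of 32463 to 38133. Jund followed at 11772 to 12247, then Jun at 3441 to 4671 and Fos at 3601 to 4536, Fosb at 1117 to 2284, Fosl2 at 238 to 512 and Atf3 at 102 to 309. Junb alone was 58.1% to 63.5% of the summed level of the 7 genes in each library. The order of Jun and Fos changed between groups. Fos was above Jun in Treg WT (3876 and 3904 against 3388 and 3493) and in Teff WT (4487 and 4585 against 4226 and 4339.9). Jun was above Fos in Treg KO (3978 and 4195 against 3517 and 3685). In Teff KO the ranges of the 2 genes overlapped, but Jun was above Fos within each library. It had 5445 against 3958 in replicate 1 and 3896 against 3506 in replicate 2. Per kb of all exons of the gene, Fos lay below Jun in both Teff WT libraries (4021 and 4110 against 4226 and 4339.9), so the order of this pair depends on the length used. Fosl2 and Atf3 overlapped only in Teff WT, where Fosl2 had 312 and 329 and Atf3 had 283 and 335 per kb.

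**Figure D2:**
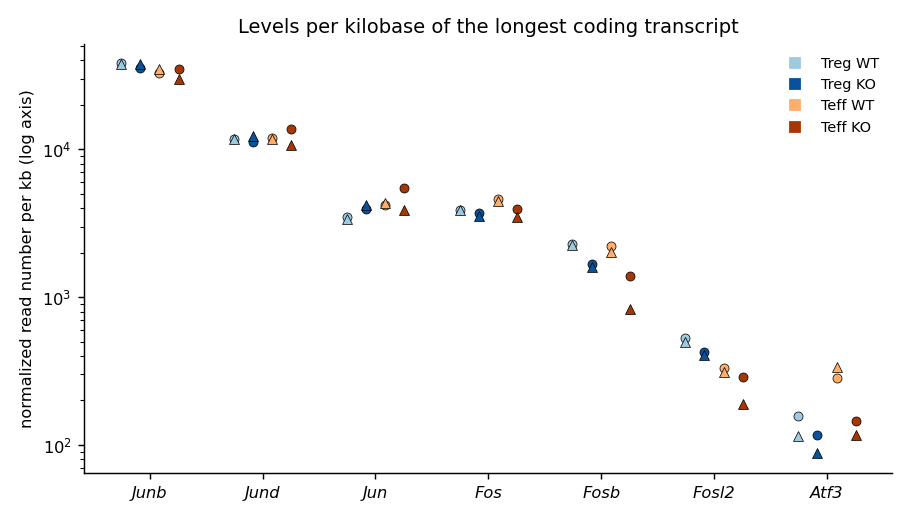
Normalized read number per kb of the longest coding transcript (vertical log axis) for the 7 genes in order of abundance; each point is 1 library, circles are replicate 1 and triangles replicate 2, coloured by group. Junb lies between 30159 and 38157 per kb in the 8 libraries and Atf3 between 87.7 and 335.

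The main question was whether these genes differed between KO and WT cells. In Teff, Atf3, Fosb and Fos fell in KO, by 1.24, 0.97 and 0.28 on the log2 scale, and no member rose. Fosl2 was lower in KO without passing the test, and the 3 Jun genes were within 0.11 of WT. Thus 3 of 7 genes were called lower, where 6.92% of all tested genes were called and 5.08% were called lower. The median log2 fold change of the 7 genes was -0.28, beside -0.02 over all tested genes. Without limma's trend and robust options none of the 3 calls held (adjusted p = 0.0540 for Atf3, 0.101 for Fosb and 0.157 for Fos). In 4 of 7 (Fos, Fosb, Fosl2 and Atf3) both KO libraries lay below both WT libraries, and in 0 they lay above, whereas 27.4% of all tested genes did not overlap in the lower direction and 22.4% in the higher.

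Atf3, the stress-induced factor, had 561 and 664 in Teff WT and 289 and 230.3 in Teff KO. Both KO values were below both WT values and lay in the range of the Treg libraries. The fall was 2.36-fold (log2 fold change -1.24, SE 0.22, limma adjusted p = 0.0209). It missed the threshold without Teff WT replicate 1 (adjusted p = 0.0594), without Teff WT replicate 2 (0.111) and without Teff KO replicate 2 (0.103), with log2 fold changes of -1.36, -1.12 and -1.08.

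Fosb, a Fos protein of the immediate early class, had 8410.5 and 7636 in Teff WT and 5282 and 3164 in Teff KO. Teff KO replicate 2 was the lowest of the 8 libraries, and replicate 1 was the next lowest. The fall was 1.96-fold (log2 fold change -0.97, SE 0.20, limma adjusted p = 0.0345). Without Teff KO replicate 1 the log2 fold change was -1.34 and without replicate 2 it was -0.60. Both values passed the test, but the call was lost in the fit of the 2 Teff groups alone (adjusted p = 0.118), without Teff WT replicate 1 (0.126) or 2 (0.115), and without any 1 Treg library (0.0634 to 0.0682).

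Fos, the founding member of its family, had 9666 and 9458 in Teff WT and 8344 and 7391 in Teff KO. The KO libraries were lower and the groups did not overlap, by a smaller margin than for Fosb. The fall was 1.22-fold (log2 fold change -0.28, SE 0.0645, limma adjusted p = 0.0449), just inside the threshold. Of 19 other settings 7 kept the call, and it was lost without filtering (adjusted p = 0.0509), without either Teff WT library, without Teff KO replicate 2 (0.138) and without any 1 Treg library (0.0765 to 0.0872).

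Fosl2, which encodes the Fos-related protein FRA-2, had 2153 and 2042 in Teff WT and 1881 and 1235 in Teff KO. The groups did not overlap, and most of the distance came from Teff KO replicate 2. The log2 fold change was -0.46 (SE 0.17, limma adjusted p = 0.179). Without Teff KO replicate 1 it was -0.76 and was called (adjusted p = 0.00855), and without replicate 2 it was -0.16 and was not.

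The Jun genes, whose products are the obligate partners of the Fos proteins, did not pass the test in Teff. Jun had 13478 and 13839.9 in Teff WT and 17366 and 12426 in Teff KO, so the 2 KO libraries lay on either side of WT (log2 fold change 0.11, SE 0.14, limma adjusted p = 0.712). Its direction turned with the library left out: without Teff KO replicate 1 the log2 fold change was -0.14, and without replicate 2 it was 0.35 and was called higher (adjusted p = 0.0392). Junb, a Jun protein with weaker activity of its own and the most abundant gene here, had 59504 and 63173 in Teff WT and 62894 and 54558 in Teff KO (-0.07, SE 0.0703). Jund, the least inducible of the 3, had 20050.5 and 19596 in Teff WT and 23108 and 17749 in Teff KO (0.03, SE 0.11). For both the KO libraries spanned or overlapped WT, with adjusted p = 0.650 and 0.909, and the sign of each turned with the Teff KO library left out.

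In Treg, 0 of 7 genes were called between KO and WT by limma, where 1.45% of all tested genes were. At an unadjusted p below 0.05 there was 1, Fosb, as there were 1964 among all 13358 tested genes, and in the authors' deposited table none was below 0.05. The 7 genes had a median log2 fold change of -0.11, beside -0.01 over all tested genes. Both KO libraries lay below both WT libraries for 4 (Fos, Fosb, Fosl2 and Junb) and above for 1 (Jun), while 25.9% of all tested genes did not overlap in the lower direction and 22.8% in the higher.

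Fosb had 8711 and 8565 in Treg WT and 6338 and 6068 in Treg KO. The libraries of a group were close together and the groups well apart. The log2 fold change was -0.48 (SE 0.20, limma adjusted p = 0.339). The SE pools the spread of all 4 groups, that between the Teff KO libraries included. With only the 2 Treg groups in the fit Fosb was called lower (adjusted p = 0.0201), and it was called likewise when either Teff KO library was left out (0.0269 and 0.0270).

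Fos had 8229 and 8169.9 in Treg WT and 7767 and 7414 in Treg KO (-0.11, SE 0.0645, limma adjusted p = 0.492). Fosl2 had 3455 and 3236 in Treg WT and 2799 and 2646 in Treg KO (-0.30, SE 0.17, adjusted p = 0.494). The KO libraries were lower for both genes without passing the test. Jun had 11138 and 10805 in Treg WT and 12686 and 13377 in Treg KO, the only gene of the 7 with both KO libraries above WT here (0.25, SE 0.14, adjusted p = 0.467). Atf3 had 310.2 and 227 in Treg WT and 232 and 174 in Treg KO, and the groups overlapped (-0.40, SE 0.22, adjusted p = 0.473). With 1 library left out, that of Atf3 ranged from -0.17 (without Treg WT replicate 1) to -0.62 (without Treg WT replicate 2), and neither passed. Junb had 69027 and 68939.6 in Treg WT and 64166 and 68135 in Treg KO, without overlap and -0.06 apart on the log2 scale. Jund had 19600.3 and 19672 in Treg WT and 18795 and 20507 in Treg KO, and its KO libraries lay on either side of WT. The adjusted p was 0.756 for Junb and 1.00 for Jund.

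The KO effects in the 2 cell types were compared with an interaction term. It called 0 of 7 genes, where it called 3 genes in all, 0.0225% of those tested, although 1384 genes had an unadjusted p below 0.05. Among the 7 genes 1 had, Atf3, with an effect 0.84 less negative in Treg than in Teff (unadjusted p = 0.0288, limma adjusted p = 0.405). The difference was 0.49 for Fosb (SE 0.29, adjusted p = 0.631), and it was 0.86 without Teff KO replicate 1 (adjusted p = 0.0742) and 0.12 without replicate 2 (0.736). For Fos it was 0.17 (SE 0.0912, adjusted p = 0.595). For none of the 7 genes, therefore, was the effect in Teff shown to differ from that in Treg (the SE of the difference was 0.31 for Atf3).

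**Figure D3:**
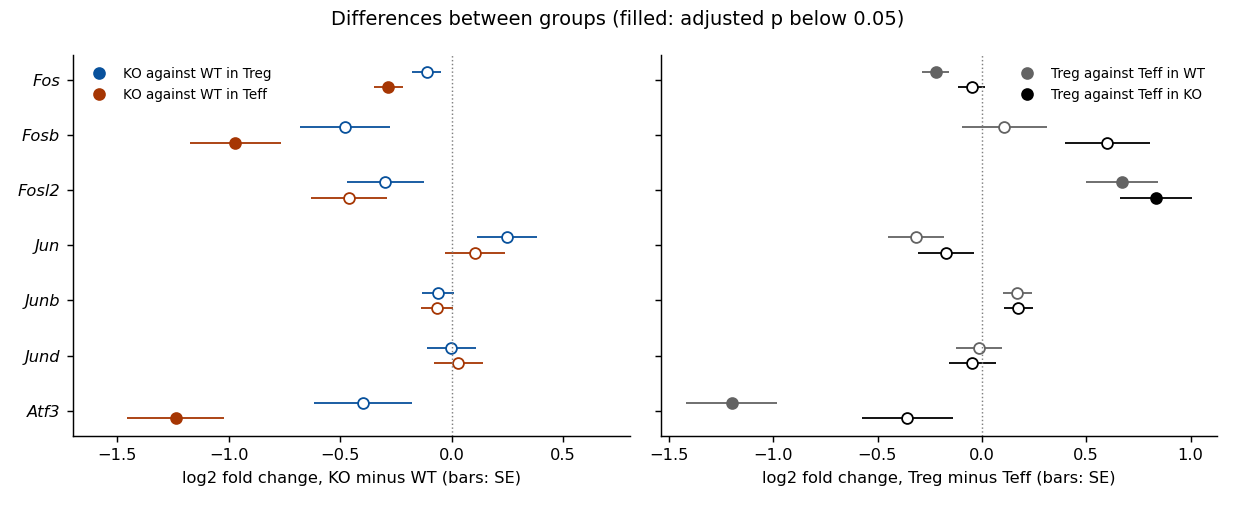
Log2 fold changes of the 7 genes with their standard errors (horizontal axis, log2 scale): KO minus WT in Treg and in Teff (left) and Treg minus Teff in WT and in KO (right). Filled points have a limma adjusted p below 0.05: Fos, Fosb and Atf3 on the left, in Teff, and Fos, Fosl2 and Atf3 on the right.

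The authors' deposited table, made from their own fit, listed the same 3 genes below 0.05 for KO against WT in Teff. It gave log2 fold changes of -0.28 for Fos (adjusted p = 0.00370), -0.93 for Fosb (0.00719) and -1.24 for Atf3 (6.05e-05). For Fosl2 it gave -0.43 (0.0938). That fit had 1131 of 12818 genes with an adjusted p below 0.05 in Teff and 453 of 13824 in Treg.

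Markers of other cells differed between the same groups. The 4 dendritic cell markers measured of 5 summed to 847 and 1457 in Teff WT and 670.1 and 336 in Teff KO, against 33.3 to 93.8 in Treg, where Clec9a was listed at 0 in both KO libraries. The 6 macrophage markers measured of 7 summed to 12774 and 13189 in Treg WT, 7693 and 7256 in Treg KO, 1623 and 770.3 in Teff WT and 735 and 531 in Teff KO. The 3 NK cell markers summed to 669 and 749 in Teff WT and 525 and 430.4 in Teff KO, with Ncr1 listed at 0 in Teff KO replicate 1 and in all Treg libraries. The 5 Treg markers summed to 7897 and 8939 in Teff WT and 6281 and 5520.3 in Teff KO, where Ctla4 and Ikzf2 fell and Foxp3 rose. B cell markers summed to 85.5 to 475.7, neutrophil markers to 10.2 to 88.0, CD8 T cell markers to 248 to 295, erythroid markers to 122 to 1210 and the 4 T cell markers measured to 46944 to 59400.0 in the 8 libraries. Neither the dendritic cell nor the macrophage list had a member that limma called between KO and WT in Treg or in Teff. Between the cell types, 6 of 6 macrophage markers in WT and 5 of 6 in KO were called higher in Treg. The 4 tested dendritic cell markers and the 2 tested NK cell markers were all called lower in Treg in both genotypes. Myeloid and NK cells also express genes of this family, and the part of these cells in the differences of the 7 genes was not tested.

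Differences between the cell types were the third question, and these comparisons share their libraries with those above. In WT, Atf3 and Fos were lower and Fosl2 higher in Treg than in Teff, 3 of 7 genes, where 25.1% of all tested genes were called. In KO, Fosl2 was again higher in Treg and was the only 1 of 7 called, where 26.9% of tested genes were. With only 7 genes, neither count is read as a departure from the share over all genes.

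Atf3 was 2.30-fold lower in Treg WT (310.2 and 227) than in Teff WT (561 and 664), with no overlap (log2 fold change -1.20, SE 0.22, limma adjusted p = 0.00666), and was called under each of the 19 other settings tried. In KO it had 232 and 174 against 289 and 230.3, which overlapped (-0.36, adjusted p = 0.279). Fosl2 was higher in Treg in both genotypes. Its log2 fold change was 0.67 in WT (adjusted p = 0.0271) and 0.84 in KO (adjusted p = 0.0106, SE 0.17). In WT this call was lost without any 1 of the 4 WT libraries (adjusted p 0.0827 to 0.123), and in KO it was lost only without Treg KO replicate 1 (0.0600) of the settings tried. Its 4 groups followed each other without overlap, Treg WT above Treg KO above Teff WT above Teff KO. The macrophage marker sums given above followed the same order, also without overlap. So did the Treg marker sums, with 50617 and 50421 in Treg WT, 45398 and 44455 in Treg KO and the lower Teff values given above. The single gene Ier5 did likewise, so the order was not particular to macrophage markers. The part of these in the Fosl2 differences was not tested.

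Fos was lower in Treg WT than in Teff WT (log2 fold change -0.22, limma adjusted p = 0.0434). This call was kept in 8 of 19 other settings and was lost with each library scaled to the same total (-0.17, adjusted p = 0.112), and without any 1 of the WT or Treg KO libraries. Junb was somewhat higher in Treg in both genotypes, by 0.17 and 0.17, and Fosb in KO by 0.60. These did not pass the test (adjusted p = 0.127, 0.112 and 0.0677). Without Teff KO replicate 1, Fosb was called higher in KO Treg (0.97, adjusted p = 0.000506), and without replicate 2 it was 0.23 and was not called (0.0796). Junb was likewise called without replicate 1 (0.28, adjusted p = 0.0177) and not without replicate 2 (0.07). The difference for Jun was -0.32 in WT (adjusted p = 0.138) and -0.17 in KO (adjusted p = 0.393), and Jund was within 0.05 of 0 in both. In KO these values depended on the Teff KO library left out. Without replicate 2, Jun was -0.41 and Jund -0.24, and both were called lower in Treg (adjusted p = 0.00420 and 0.0463). Without replicate 1 the signs turned, to 0.068 for Jun and 0.15 for Jund, and neither was called. Fos in KO was -0.05, and 0.038 without replicate 1 and -0.14 without replicate 2, called in none of the 3.

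Because replicate 2 of Teff KO was lower in all 7 genes, ratios to Jun within a library were also computed. They were chosen after the values had been seen and are given with no test. Fosb to Jun was 0.782 and 0.793 in Treg WT, 0.4996 and 0.454 in Treg KO, 0.624 and 0.552 in Teff WT, and 0.304 and 0.255 in Teff KO. KO lay below WT in both cell types, and the 2 Teff KO libraries were closer to each other than in Fosb itself. Fosl2 to Jun had the same order, from 0.310 and 0.300 in Treg WT to 0.221 and 0.198 in Treg KO, and from 0.160 and 0.148 in Teff WT to 0.108 and 0.0994 in Teff KO. Atf3 to Jun was 0.0416 and 0.0480 in Teff WT against 0.0166 and 0.0185 in Teff KO, and 0.0279 and 0.0210 in Treg WT against 0.0183 and 0.0130 in Treg KO. Fos to Jun was 0.739 and 0.756 in Treg WT, 0.612 and 0.554 in Treg KO, 0.717 and 0.683 in Teff WT, and 0.481 and 0.595 in Teff KO. KO lay below WT here too, but the 2 Teff KO libraries were further apart than in Fos itself and in the reverse order. The summed Fos genes to the summed Jun genes per kb were 0.126 and 0.125 in Treg WT, 0.114 and 0.102 in Treg KO, 0.145 and 0.134 in Teff WT, and 0.104 and 0.101 in Teff KO. A ratio shows that its genes changed unequally and not which of them changed. Jun itself had 12685.8 and 13377 in Treg KO against 11138.5 and 10805.1 in Treg WT. The ratios to Jun in Treg KO thus had a larger denominator, which lowers them. In Teff KO, Jun had 17365.7 in replicate 1 and 12425.5 in replicate 2, against 13477.8 and 13839.9 in Teff WT. The denominator thus lowers the ratios of Teff KO replicate 1 and raises those of replicate 2. Ratios of single genes to Junb or Jund were not computed, so the separation of KO from WT is given for Jun as denominator only.

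**Figure D4:**
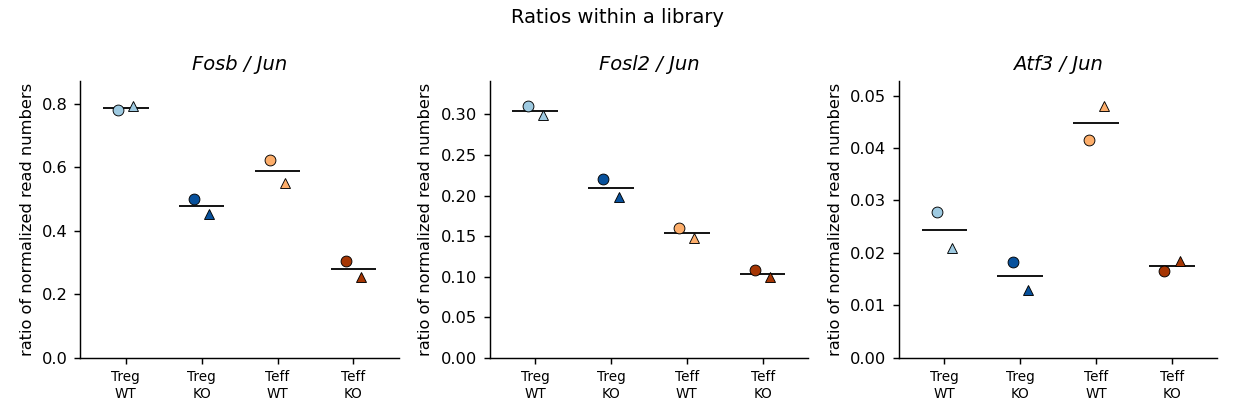
Ratios of the normalized read numbers of Fosb, Fosl2 and Atf3 to that of Jun in the same library (vertical axis, from 0); circles are replicate 1, triangles replicate 2 and bars the mean of the 2 libraries. Both KO libraries lie below both WT libraries of the same cell type in each panel. Jun, the denominator, was itself higher in both Treg KO libraries than in both Treg WT libraries. In Teff KO it was above both Teff WT libraries in replicate 1 and below both in replicate 2.

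The genes of the routes that lead to AP-1 come next. Their counts, and those of the lists that follow, stand beside 1.45% of all tested genes called in Treg, and 6.92% called and 5.08% called lower in Teff. The median log2 fold change of all tested genes was -0.01 in Treg and -0.02 in Teff, and 1964 and 2881 of the 13358 had an unadjusted p below 0.05. Counts of a list without a Teff KO library were added after the data had been seen. Of 19 genes of the MAP kinase route, limma called 0 between KO and WT in either cell type, with 3 in Treg and 6 in Teff at an unadjusted p below 0.05, and the medians were -0.02 in both. Of 6 tested genes of the SRF and ternary complex route, 0 were called in Treg (1 at an unadjusted p below 0.05) and 1 in Teff. That gene, which was not called when Teff KO replicate 1 or replicate 2 was left out, was Elk1, which encodes a ternary complex factor that brings MAP kinase signals to the Fos promoter. It rose in Teff from 402 ± 7.97 to 535 ± 29.9 (SD, n = 2, log2 fold change 0.41, limma adjusted p = 0.0430). In Treg, Elk1 had 473 ± 10.6 in WT and 667 ± 27.3 in KO, also without overlap, and was not called. Fos was called lower in Teff and not in Treg. Between the cell types, limma called 2 of the 19 MAP kinase genes higher and 2 lower in Treg in WT, and 3 higher and 2 lower in KO. Over all tested genes 25.1% were called in WT and 26.9% in KO. Mapkapk2 and Map2k3, kinases of the p38 branch, were higher in Treg in both genotypes, Mapkapk2 by 0.73 in WT and 0.72 in KO. Mapk14 and Map2k6 of the same branch had lower means in Treg in both genotypes without being called. Mapk14 had 750 in Treg against 1019 in Teff in WT, and 797 against 1189 in KO. Srf and its partners under the symbols Mkl1 and Mkl2 were not analysed here.

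Of 23 tested other AP-1 and related basic leucine zipper factors, 0 were called in Treg (4 at an unadjusted p below 0.05) and 3 fell in Teff, with a median of -0.12. Without Teff KO replicate 1 the count in Teff was 4 and without replicate 2 it was 2, Batf and Maf. Batf, which replaces Fos proteins as the partner of Jun proteins at IRF4 sites, fell in Teff from 1148 ± 25.5 to 794 ± 5.77 (SD, n = 2; log2 fold change -0.53, limma adjusted p = 0.00647) and had -0.31 in Treg (adjusted p = 0.0767). Maf, a regulator of IL-10 and IL-21 in T cells, fell from 5062 ± 159 to 3645 ± 202 in Teff (-0.47, adjusted p = 0.00888). Atf6, a sensor of endoplasmic reticulum stress in a branch separate from IRE1a, fell from 939.8 ± 144 to 552 ± 4.96 (-0.76, adjusted p = 0.0128). Batf and Maf were higher in Treg than in Teff in both genotypes, Batf by 0.90 in WT and 1.12 in KO, and Nfil3 and Nfe2l2 were called in opposite directions, at 1.78 and -0.91 in WT.

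Of the same list, 3 genes that restrain or replace AP-1 did not pass in KO against WT. Bach2, a repressor that competes for AP-1 sites, had 0.52 in Treg and 0.14 in Teff (adjusted p = 0.451 and 0.814). Jdp2, which pairs with Jun proteins as a repressor, had -0.65 and -0.92 (adjusted p = 0.289 and 0.0744). Batf3 was weak, at 25.5 ± 3.76 in Teff WT and 13.0 ± 12.4 in Teff KO. Fosl1, the remaining Fos gene, was not analysed here.

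Immediate early genes outside AP-1 were described in the same way. Of 31 tested, 7 fell and none rose in Teff, where 5.08% of all tested genes were called lower, with a median of -0.26 beside -0.02 over all tested genes. This count depended on the Teff KO library left out. It was 15 without replicate 1, with 496 of 13248 tested genes called lower, and 4 without replicate 2 (Nfkbia, Zfp36, Nr4a3 and Egr3), with 269 of 13263. In Treg 0 of the 31 were called, with a median of -0.11. An unadjusted limma p below 0.05 was found for 12 of the 31, beside 14.7% of all tested genes. Zfp36, which encodes a protein that destroys AU-rich mRNAs, fell in Teff from 23814 ± 639 to 15922 ± 1819.8 (SD, n = 2; log2 fold change -0.59, limma adjusted p = 0.00681). Nfkbia, the inhibitor of NF-kB that NF-kB itself induces, fell from 10848 ± 110.3 to 6775 ± 994 (-0.69, adjusted p = 0.00717). Nr4a3, an orphan receptor induced by the T cell receptor, fell from 1061 ± 54.8 to 553 ± 129.5 (-0.96, adjusted p = 0.0121), and Rgs1, a regulator of chemokine receptor signals, fell by 0.74 in log2 units (adjusted p = 0.0141). The others that fell were Gadd45b, Cd69 and Egr3. Egr1 had -0.50 in Teff and Dusp1, a phosphatase of MAP kinases, had -0.21, without passing (adjusted p = 0.0523 and 0.337). Ier2 was not analysed here. In Teff KO the summed level of this list was 328610 in replicate 1 and 278390 in replicate 2, the same order of the 2 libraries as in each of the 7 genes.

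Between cell types, Fos and Atf3 were lower in WT Treg, while most called genes of the immediate early list were higher. Of the 31 genes, 16 were higher and 2 lower in Treg than in Teff in WT, and 18 and 1 in KO, with medians of 0.42 and 0.59. Over all tested genes 25.1% were called in WT (1806 higher and 1551 lower) and 26.9% in KO (2100 and 1497), with medians of 0.00 in both. Zfp36l1, Nfkbia, Myc and Gadd45b led in WT, with Nfkbia at 27984 ± 569.5 in Treg WT against 10848 ± 110.3 in Teff WT, whereas Egr1 was lower in Treg (-0.58, limma adjusted p = 0.0119).

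Heat shock genes, which respond to handling, were described for the same libraries. Of 16 tested, 1 fell and 0 rose in Treg, and 1 fell and 1 rose in Teff, with medians of -0.02 and 0.05. When Teff KO replicate 1 or replicate 2 was left out, 1 fell and 0 rose in Teff. The list summed to 166910 to 176620 in the 8 libraries. Hspa1b was the gene that fell in both, with 732 and 732 in Treg WT, 340.3 and 341 in Treg KO, 658 and 747 in Teff WT and 331 and 339.9 in Teff KO. WT and KO were far apart and the libraries of a genotype close together (log2 fold changes -1.10 and -1.06, limma adjusted p = 0.00278 and 0.00234). Its near-identical copy Hspa1a had -0.92 and -0.84 without passing (adjusted p = 0.103 and 0.0639), and reads may be split between the 2 copies in an uncertain way. Hsf1, the heat shock factor, rose in Teff by 0.29 (adjusted p = 0.0337). The labels give no times or temperatures of handling, and the part of handling in the differences of Fos, Fosb and Atf3 was not tested.

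**Figure D5:**
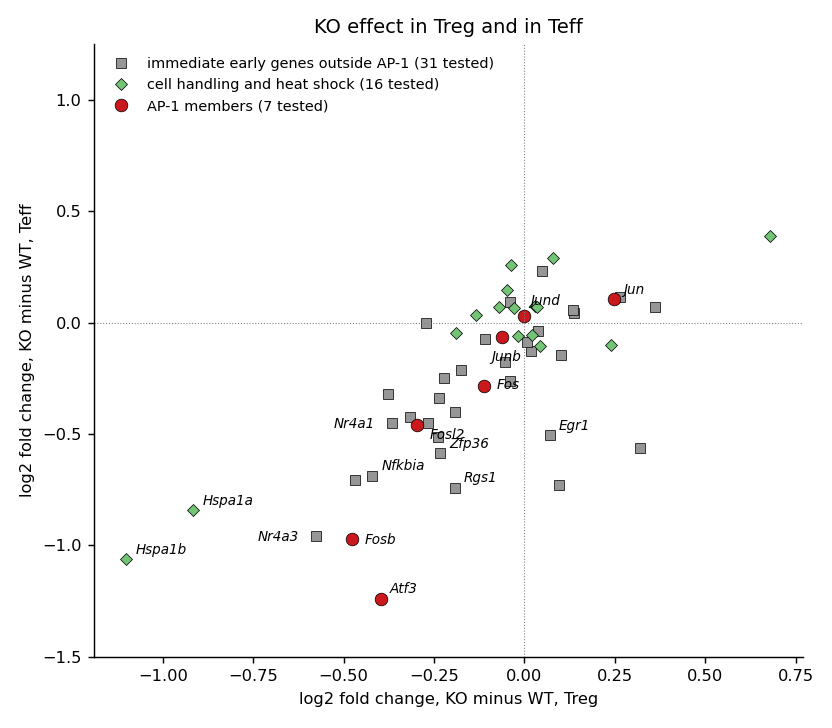
Log2 fold change of KO minus WT in Treg (horizontal axis) and in Teff (vertical axis) for the 7 genes, 31 immediate early genes outside AP-1 and 16 heat shock and handling genes; each point is 1 gene. Fosb and Atf3 lie at the lower edge beside Nr4a3, while most heat shock genes lie near 0 and Hspa1a and Hspa1b lie at the lower left.

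Genes that AP-1 works with or is reported to act on in T cells were counted last. Of 20 tested, 1 rose (Vim) and 1 fell (Irf4) in Treg, where 1.45% of all tested genes were called, with a median of -0.04. In Teff 8 fell and none rose, where 5.08% of all tested genes were called lower, with a median of -0.44 beside -0.02 over all tested genes. The count in Teff was 6 without Teff KO replicate 1 and 4 without replicate 2 (Gzmb, Irf4, Tnf and Ctla4). Irf4, a factor that binds DNA beside AP-1, fell from 2494 ± 28.4 to 1688 ± 69.1 in Treg and from 1622 ± 215 to 888 ± 10.2 in Teff (SD, n = 2; log2 fold changes -0.56 and -0.86, limma adjusted p = 0.0429 and 0.00438). Gzmb, a granule protease, fell in Teff from 261 ± 30.6 to 95.3 ± 12.5 (-1.44, adjusted p = 0.00302). Tnf, an inflammatory cytokine, fell from 797 ± 18.5 to 489 ± 19.8 (-0.70, adjusted p = 0.00647), and Ctla4, an inhibitory receptor, fell by 0.39 in log2 units (adjusted p = 0.0136). Irf8, Ifng, Vim and Icos were the other 4. The difference of effects called 0 of the 20. At an unadjusted limma p below 0.05 there were 11 of the 20, beside 10.4% of all tested genes.

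Targets of ATF4 and CHOP, factors of the stress branch that also induces Atf3, included 9 tested genes. Of these 0 were called in Treg (1 at an unadjusted p below 0.05) and 1 fell in Teff, Asns, which makes asparagine, from 154 ± 47.3 to 28.7 ± 11.1 (-2.40, limma adjusted p = 0.0114). Atf4 itself had -0.10 in Treg and -0.04 in Teff, Ddit3, which encodes CHOP, had 0.18 and 0.18, and Trib3 had 0.20 and 0.05, none of which passed (lowest adjusted p = 0.570).

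Correlations over the 8 libraries (Pearson r of log2(value + 1)) describe which genes had the most similar values. All 8 points share the 4 groups, so no p is given. Among the 7 genes Fos and Atf3 were most alike (r = 0.946), then Fosl2 and Junb (0.919) and Fosb and Fosl2 (0.812), while Jun was closest to Jund (0.701) and had negative values with Fosb (-0.301), Fosl2 (-0.485) and Junb (-0.299). Among 9177 other tested genes with a mean of at least 100, those nearest to Fos were Unc5a (0.972), Igkc and Tbc1d9, and those nearest to Fosb were E2f8 (0.986), Tlnrd1 and Nr4a1 (0.967). Nr4a1 is itself an immediate early gene and had 11635 and 11109 in Teff WT and 9377 and 7384 in Teff KO. Among the genes nearest to Fosl2 were Slc43a3 (0.989) and Ier5, an immediate early gene. The nearest genes were Rnf126, Lin7c and Lcmt2 for Jun (0.955 to 0.982), Arf6, Noc4l and Fbxl19 for Junb (0.981 to 0.983), Josd1, Map1lc3a and Nfatc2ip for Jund (0.921 to 0.926), and Dnajc15, Adam23 and Cstf2 for Atf3 (0.962 to 0.970). The mean of the 7 genes was nearest to Unkl (0.947), Cks2, Sorl1, Pcmt1, Snx25, Arc, Espl1 and Chpf2 (0.903), of which Arc is an activity-induced early gene.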

How the data were processed

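RNA of 8 libraries (4 groups of 2) was poly(A)-selected and read single-end on a DNBSEQ instrument, per the labels' protocols. The submitters' processing notes name the build mm10 and the tools DESeq2 1.28.1 (with R 4.0.3), Salmon 0.14.1 and Trim Galore 0.4.4. The signal that the authors deposited for each gene and library is a normalized, non-integer read number: 26.6% to 29.1% of values were whole multiples of the commonest step (tolerance 0.02), so count models were not used. The authors' deposited log2 fold changes and adjusted p-values are quoted only where named.

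Values were tested as log2(value + 1), a scale that understates changes of weak genes, with limma 3.58.1 in R 4.3.3 (trend, robust, all 8 libraries, 4 residual degrees of freedom). The filter kept 13358 genes (10 or more in 2 or more libraries), over which Benjamini-Hochberg adjustment was made in each of 5 comparisons, with calls below 0.05. The scripts were tested on simulated data. The 7 genes, the 8 gene lists and the 9 marker lists were chosen with earlier results of these data known.

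Named were the 7 genes, a set of related genes whatever their result, up to 4 called members of a list per comparison with the smallest p, and the genes most like the members, of which 1 is not reported here. Further called members of a list are named to complete its count. In all, 19 other settings were tried (pseudocount, filter, scaling, model options, groups in the fit, replicate block, 8 leave-one-out fits). Gene coordinates are from GENCODE M21 and promoters from RefSeq, matched by symbol for all 7 genes. Python 3.11.15, pandas 2.3.3 and matplotlib 3.10.9 made the tables and figures.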

Additional observations from a re-analysis of the deposited data

How the results depend on the processing

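With 2 libraries a group and shared spread, the calls of single genes lay close to the threshold. Of the log2 fold changes of the 7 genes recomputed under the other settings, 570 kept their direction and their side of the threshold, 41 were no longer called, 20 were newly called and 27 changed sign. The causes of these changes were not tested. A fit of only 2 groups leaves fewer residual degrees of freedom in Teff and in Treg alike. Over all genes such a fit called 177 between KO and WT in Teff, against 924 with all 4 groups, and 230 in Treg, against 194. Of the 7 genes, KO against WT in Teff called 3, but 0 without limma's trend and robust options. It called 1 with only the 2 Teff groups, and 0 to 4 when 1 library was left out. In Treg 0 were called, 1 with only the 2 Treg groups, and 0 to 1 with a library left out. Treg against Teff in WT called 3, 1 without trend and robust options and 1 to 5 with a library left out. In KO it called 1, 3 with library totals, 2 with quantile normalization and 0 to 3 with a library left out.

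Over all genes, KO against WT in Treg called 194, and 44 to 192 with a library left out. In Teff it called 924, 571 without trend and robust options, 177 with only the 2 Teff groups and 347 to 642 with a library left out. The difference of effects called 3, 6 with a pseudocount of 5, 5 with no filter, 5 with library totals, 11 without trend and robust options and 0 to 3 with a library left out. Treg against Teff called 3357 in WT (2086 to 3315 with a library left out) and 3597 in KO (2351 to 3572).

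Replicate numbers are shared by the groups, but the labels tie them to no animal, litter or day. Deviations of same-numbered libraries from their group means correlated at -0.116 to 0.0561, so the block is not taken as a pairing. With the replicate block, all genes called in Treg numbered 114, 3 of the 7 genes were called in Teff, and 2 were called for Treg against Teff in KO (Fosl2 and Fosb, adjusted p = 0.0462). With the numbers crossed between WT and KO, an alternative chosen after seeing the data, 129 genes were called in Treg and 2 of the 7 in Teff.

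Signs changed in these cases. Jund in Treg was 0.018 with library totals, 0.014 with upper-quartile scaling and 0.0066 with quantile normalization, and -0.063 to 0.063 with a library left out. For Treg against Teff, with library totals and quantile normalization in turn, Jund was 0.041 and 0.15 in WT and 0.029 and 0.15 in KO, and Fos in KO was 0.024 and 0.083. Jun in KO was 0.0039 with quantile normalization. With a library left out, Jund in WT ranged from -0.030 to 0.0030, and in KO Fos ranged from -0.14 to 0.038, Jun from -0.41 to 0.068 and Jund from -0.24 to 0.15. For KO against WT in Teff, Jun ranged from -0.14 to 0.35, Junb from -0.17 to 0.037 and Jund from -0.16 to 0.22. For the difference of effects, Fosl2 ranged from -0.14 to 0.47, Jun from -0.099 to 0.38, Junb from -0.098 to 0.11 and Jund from -0.22 to 0.16. No scaling moved the median of all genes by more than 0.0823.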

Other observations

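Another gene also separated the 2 Teff KO libraries. Pax5, a B cell factor measured among the markers, had 178 and 162 in Treg KO and 168 in Teff KO replicate 2, but 9.06 in Teff KO replicate 1 and 2.87 to 17.7 in the WT libraries. Other B cell markers did not show such a gap: Ms4a1 had 19.9 in Teff KO replicate 2 and 11.4 in replicate 1, and Cd79a had 37.1 and 24.8. Teff KO replicate 2 is the library in which all 7 genes were lower. Whether the 2 measurements are related was not tested.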
